A study of Rattus norvegicus with 18 samples.

Results

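The genes described here are 8 genes that make or move the transmitters glutamate and GABA. They were chosen by symbol from the 38445 genes of the count files, and all 8 were found. Slc1a2, Slc1a3 and Slc1a1 encode glutamate transporters of the plasma membrane, Slc17a7 encodes a vesicular glutamate transporter, Glul encodes glutamine synthetase, Gad1 and Gad2 encode the enzymes that make GABA, and Slc32a1 encodes the vesicular GABA transporter. RNA-Seq was performed on the dorsal hippocampus of 18 adult male Sprague Dawley rats, 75 to 85 days old at purchase, in 3 groups of 6. All rats received a Lieber-DeCarli liquid diet. The control group stayed on the diet without ethanol, the ethanol group was brought up to 9% ethanol and kept on it for 16 days, and the withdrawal group was kept on 9% ethanol for 15 days and then returned to the control diet for 24 h. Each rat was a separate animal, and every library was made from the bulk tissue of 1 rat.

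Glutamate released by excitatory neurons is cleared mainly by astrocytes, which turn it into glutamine and hand it back to neurons for the renewed synthesis of glutamate and GABA. In the hippocampus the pyramidal and granule neurons are glutamatergic, and the scattered interneurons are GABAergic. Chronic ethanol and its removal are known to shift the balance of these transmitters.

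Levels of the 8 genes differed little between the groups. In withdrawal vs. ethanol, Gad2 was higher (mean 122 CPM vs. 79.8 CPM) and was the only 1 of the 8 that was DE, where 1.23% of all genes were DE in that direction. In withdrawal vs. control 0 of 8 were DE, with Slc32a1 and Gad2 closest to the threshold, and in ethanol vs. control 0 of 8 were DE. CPM are TMM-normalized counts relative to the total of the library, and DE means q < 0.1 in limma-voom with 3 surrogate variables, where q is the Benjamini-Hochberg adjusted p within a comparison. Of all 17853 genes tested, 5.41% were DE in withdrawal vs. control, 0.493% in ethanol vs. control and 2.72% in withdrawal vs. ethanol. With 8 genes, counts of 0 or 1 lie close to these shares. Unadjusted p was below 0.05 for 2 of 8 genes in withdrawal vs. control, for 0 of 8 in ethanol vs. control and for 2 of 8 in withdrawal vs. ethanol, where it was below 0.05 for 19.7%, 12.5% and 16.7% of all genes. With edgeR the counts of DE genes among the 8 were 0, 0 and 1, and with DESeq2 they were 2 (Gad2 and Slc32a1), 0 and 1. Of all genes, edgeR called 5.77%, 0.538% and 2.98%, and DESeq2 called 9.10%, 2.65% and 6.59%. The median absolute log2 fold change of the 8 genes was 0.09, 0.05 and 0.12 in these comparisons, and that of all genes was 0.09, 0.08 and 0.09. The rats of the groups compared overlapped for all 8 genes in each comparison, where 1.06%, 1.32% and 1.22% of all genes did not overlap. In bulk tissue, fewer cells of a type and less RNA per cell cannot be told apart.

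Each library held between 30873228 and 42679748 counts on genes, and the lowest count of any of the 8 genes in any rat was 1571. Sampling error was therefore small beside the spread between rats in most groups. It was a larger part for Slc1a1 in control rats, where the SD was 2.77% of the mean at a mean count of 3402. The libraries carried index sequences of 3 sets. The first set was used for the control rats, the second for the ethanol rats and for 2 rats of the withdrawal group, and the third for the remaining 4, so that the effect of index set cannot be told apart from that of control diet. Most listed markers of the hippocampus were present in all rats, but so were markers of neighbouring tissue, and both varied widely. Of the pyramidal and granule neuron markers, Fibcd1 and Spink8 were at most 0.0651 and 0.624 CPM in any rat. The largest part of their sum was Camk2a (1250 CPM on average in control rats). The summed level of 11 markers of pyramidal and granule neurons lay between 1430 and 2907 CPM in 17 rats and was 964 CPM in withdrawal rat 5. The summed level of 8 markers of the thalamus, which lies next to the hippocampus, lay between 292 and 1665 CPM and was highest in ethanol rat 1. The summed level of 7 markers of the choroid plexus, the tissue that makes cerebrospinal fluid, lay between 1771 and 7559 CPM in 16 rats and was 208 and 214 CPM in withdrawal rats 4 and 5. The summed level of 8 transcription factors of midbrain neurons (Gata3, Sox14, Pax7, Dmbx1, En1, En2, Lhx1 and Lhx5) lay between 2.64 and 70.0 CPM. This last list was put together after the values had been seen. The differences of Gad2, Slc32a1 and Glul and most correlations are given below with and without rats that stand apart.

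Per length of exon, the levels of the 8 genes in control rats spanned an 18.1-fold range. Slc17a7 was highest at 446 ± 60.9 RPKM (SD, n = 6; TMM-scaled CPM per 1000 bases of annotated exon) and was followed by Glul at 433 ± 43.0 RPKM, and the ranges of these neighbours overlapped. Slc1a3 (203 ± 15.8 RPKM), Slc1a2 (120 ± 7.13 RPKM) and Gad1 (73.3 ± 10.6 RPKM) followed without overlap. Slc1a1 (53.6 ± 1.49 RPKM) and Gad2 (49.7 ± 7.85 RPKM) overlapped, and Slc32a1 was lowest at 24.7 ± 2.34 RPKM. All 8 genes were abundant. Slc17a7 stood above 99.7% of the genes tested and Slc32a1 above 82.2%. These levels depend on the exon models of the files, which range from 1685 bases for Slc1a2 to 3960 bases for Slc1a3, and read pairs outside the annotated exons were not counted. The plot of levels by rat shows all 8 genes.

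**Figure D1:**
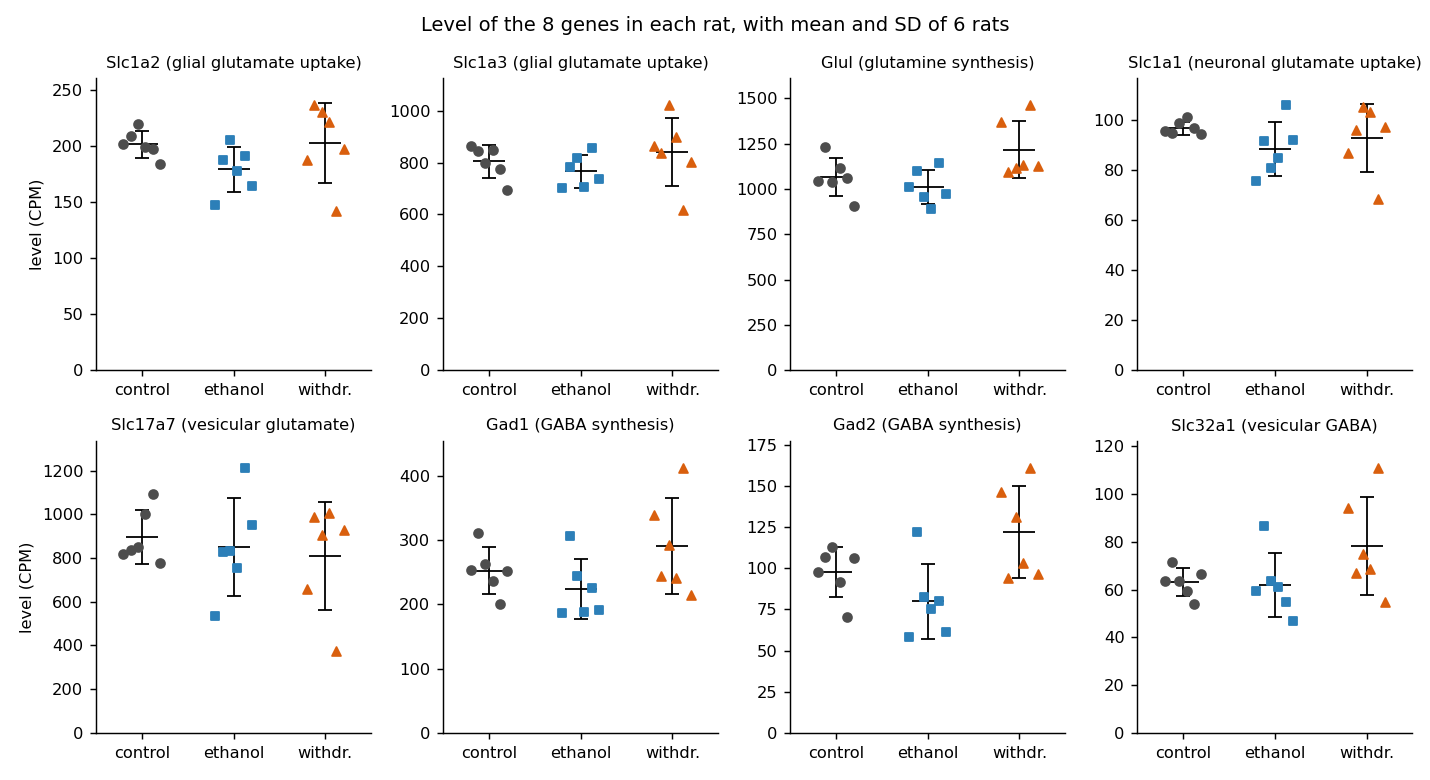
Each panel plots the TMM-scaled level of 1 gene in CPM (vertical axis, from 0) in the 18 rats by group, with 1 point per rat and bars for the mean and SD of 6 rats. The groups overlap in all 8 panels, and Gad2, the gene that was DE, ranges from 94.2 to 161 CPM in withdrawal and from 58.4 to 122 CPM in ethanol rats.

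The genes of glutamate clearance by astrocytes come first. Slc1a2 (Rnor_6.0 chr3:92518679-92665731, plus strand, gene ID 29482) encodes GLT-1, the main astrocytic glutamate transporter. Its level was 184 CPM in the lowest control rat, 201 at the median and 220 in the highest. In ethanol rats it was 148, 183 and 206 CPM, and in withdrawal rats 142, 210 and 237 CPM. The groups overlapped. Withdrawal held both the lowest rat of all 18, rat 5, and the highest. The log2 fold change was 0.02 ± 0.075 (SE) in withdrawal vs. control (q = 0.902, limma), -0.09 ± 0.080 in ethanol vs. control (q = 0.688) and 0.11 ± 0.085 in withdrawal vs. ethanol (q = 0.531). In ethanol vs. control 3 of 6 ethanol rats lay below every control rat, and the exact permutation test over rats gave p = 0.0454 (q = 0.357). The withdrawal vs. ethanol value passed with 5 surrogate variables (0.20, q = 0.0492) and without the 3 rats with the lowest pyramidal and granule neuron markers (0.23, q = 0.0818), where 4.88% and 4.01% of all genes were DE.

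Slc1a3 (chr2:57860881-57935363, minus strand, gene ID 29483) encodes GLAST, the other astrocytic transporter. It ranged from 696 to 863 CPM in control rats (median 822), from 701 to 856 CPM in ethanol rats (median 760) and from 619 to 1022 CPM in withdrawal rats (median 848). The 3 ranges overlapped, and that of withdrawal was the widest at both ends. The 95% interval of the log2 fold change ran from -0.05 to 0.21 in withdrawal vs. control, from -0.12 to 0.15 in ethanol vs. control and from -0.08 to 0.20 in withdrawal vs. ethanol.

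Glul (chr13:71331052-71340207, plus strand, gene ID 24957) encodes the astrocytic enzyme that joins ammonia to glutamate. It ranged from 906 to 1230 CPM in control rats (median 1053), from 889 to 1143 CPM in ethanol rats (median 993) and from 1093 to 1464 CPM in withdrawal rats (median 1129). All 6 withdrawal rats lay above the means of both other groups, 2 of them (rats 1 and 5) lay above every other rat, and the remaining 4 lay within the range of the control rats. Its log2 fold change was 0.15 ± 0.074 in withdrawal vs. control (q = 0.275) and 0.16 ± 0.083 in withdrawal vs. ethanol (q = 0.351), and in ethanol vs. control it was -0.01 ± 0.079 (q = 0.981). Glul was not DE, and the 95% intervals of the withdrawal comparisons ran from -0.01 to 0.31 and from -0.02 to 0.33. Without the 3 rats with the lowest summed pyramidal and granule neuron markers, which are withdrawal rats 1 and 5 and ethanol rat 1, the fold changes were 0.03 (q = 0.832) and 0.05 (q = 0.606). With that marker sum in place of the surrogate variables Glul passed in withdrawal vs. ethanol (0.26, q = 0.0729), where 10.2% of all genes did.

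The neuronal genes of the glutamate group were Slc1a1 and Slc17a7. Slc1a1 (chr1:246955017-247035159, plus strand, gene ID 25550) encodes EAAC1, the glutamate transporter of neurons. Its level was nearly constant among control rats, from 94.2 to 101 CPM (median 96.1). In ethanol rats it was 75.5 CPM in the lowest and 88.2 CPM at the median (88.4 ± 10.6 CPM, SD), and in withdrawal rats it spread from 68.3 to 105 CPM (median 96.5). Of the ethanol rats, 5 lay below every control rat and 1 lay above every control rat. The log2 fold changes were small in all 3 comparisons, between -0.07 and 0.04, with q between 0.583 and 0.765.

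Slc17a7 (chr1:101161265-101172292, plus strand, gene ID 116638) encodes VGLUT1, which loads glutamate into the synaptic vesicles of hippocampal and cortical excitatory neurons. It ranged from 776 to 1091 CPM in control rats (median 843), from 534 to 1213 CPM in ethanol rats (median 830) and from 376 to 1006 CPM in withdrawal rats (median 917). The medians were close. Withdrawal rat 5 (376 CPM), ethanol rat 1 and withdrawal rat 1 were the lowest rats. On the log2 scale its difference was -0.15 ± 0.070 in withdrawal vs. ethanol (q = 0.293), -0.10 ± 0.062 in withdrawal vs. control (q = 0.368) and 0.04 ± 0.066 in ethanol vs. control (q = 0.832). The first of these was 0.07 with 1 surrogate variable, and the last was -0.10 with none. Genes on the other strand overlap Slc1a1 and Slc17a7, and the counting used strand.

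The 3 genes of GABA neurons varied together from rat to rat, so the sequences before their start sites are shown. They are the 250 bases upstream of the RefSeq start (GRCr8, plus strand, 5′ to 3′) of Gad1 at chr3:75777202-75777451, of Gad2 at chr17:89671468-89671717 and of Slc32a1 at chr3:167686995-167687244. Capitals mark matches, in these letters or their reverse complement, of 4 motifs, which are the GC box GGGCGG, the core TGACG of the cyclic AMP response element, the TATA box TATAAA and the STAT motif TTCNNNGAA. No matches overlapped.
Gad1: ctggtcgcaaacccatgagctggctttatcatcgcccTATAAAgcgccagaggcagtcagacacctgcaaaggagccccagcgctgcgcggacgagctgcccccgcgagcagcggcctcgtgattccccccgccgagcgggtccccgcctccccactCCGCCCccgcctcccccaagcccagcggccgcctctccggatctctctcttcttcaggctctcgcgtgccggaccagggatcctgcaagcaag
Gad2: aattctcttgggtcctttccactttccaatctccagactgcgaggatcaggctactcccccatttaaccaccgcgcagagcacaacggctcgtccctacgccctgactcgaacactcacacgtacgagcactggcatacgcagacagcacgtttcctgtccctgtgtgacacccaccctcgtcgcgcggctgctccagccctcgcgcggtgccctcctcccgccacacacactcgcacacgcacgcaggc
Slc32a1: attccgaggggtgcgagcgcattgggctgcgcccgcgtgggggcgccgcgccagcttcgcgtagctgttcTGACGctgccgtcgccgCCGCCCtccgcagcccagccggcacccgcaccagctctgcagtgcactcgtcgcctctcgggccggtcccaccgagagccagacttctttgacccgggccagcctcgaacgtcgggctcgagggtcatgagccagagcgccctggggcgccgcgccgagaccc
Gad1 held 1 GC box and 1 TATA box, Slc32a1 held 1 GC box and 1 response element core, and Gad2 held none of the 4 motifs. Of 33469 upstream windows of the same length, 30.5% held the GC box, 18.2% the response element core, 12.9% the TATA box and 7.67% the STAT motif. The windows were rich in G and C, at 68.4% for Gad1, 62.0% for Gad2 and 73.6% for Slc32a1, where the median window had 51.2%. They held 23, 22 and 34 CpG sites against a median of 5. A match is a run of letters and not a binding site.

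Gad1 (Rnor_6.0 chr3:56861440-56902139, plus strand, gene ID 24379) encodes GAD67, which makes most of the GABA of the cell body. It ranged from 200 to 311 CPM in control rats (median 252), from 187 to 307 CPM in ethanol rats (median 208) and from 215 to 413 CPM in withdrawal rats (median 269). Withdrawal rats 5 and 1 lay above every other rat, and the other 4 lay within the range of the controls. On the log2 scale it differed by 0.08 ± 0.060 in withdrawal vs. control (q = 0.461), -0.03 ± 0.064 in ethanol vs. control (q = 0.913) and 0.11 ± 0.067 in withdrawal vs. ethanol (q = 0.434).

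Slc32a1 (chr3:155102980-155107815, plus strand, gene ID 83612) encodes VGAT, which loads GABA and glycine into vesicles. It ranged from 54.0 to 71.4 CPM in control rats (median 63.6), from 46.7 to 86.4 CPM in ethanol rats (median 60.1) and from 54.7 to 111 CPM in withdrawal rats (median 71.8). In withdrawal, 3 of 6 rats lay above every control rat and 5 of 6 above the control mean. The log2 fold change in withdrawal vs. control was 0.18 ± 0.058 (95% interval 0.06 to 0.30, q = 0.108, limma), just outside the threshold. It passed with 4 surrogate variables (q = 0.0872), with DESeq2 (q = 0.0725), with a filter of 0.5 CPM in at least 6 rats (q = 0.0946) and in a fit of only the 2 groups (q = 0.0651). It also passed when ethanol rat 2 (q = 0.0947), ethanol rat 6 (q = 0.0958) or withdrawal rat 4 (q = 0.0744) was left out. In these 7 fits 4.73% to 9.10% of all genes were DE. The exact permutation test over rats, without surrogate variables, gave p = 0.117. In withdrawal vs. ethanol the log2 fold change was 0.12 ± 0.065 (q = 0.346).

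Gad2 (chr17:89171576-89234770, plus strand, gene ID 24380) encodes GAD65, the form of the enzyme that is enriched at nerve endings. Its level was 70.3 CPM in the lowest control rat, 102 at the median and 113 in the highest. In ethanol rats it was 58.4, 77.5 and 122 CPM, and in withdrawal rats 94.2, 117 and 161 CPM. All 6 withdrawal rats lay above 5 of the 6 ethanol rats, and ethanol rat 2, at 122 CPM, lay above 3 withdrawal rats. Its log2 fold change in withdrawal vs. ethanol was 0.35 ± 0.083 (95% interval 0.17 to 0.52, q = 0.0578, limma), with the means of the control rats (97.7 ± 15.4 CPM) between those of the ethanol rats (79.8 ± 22.7 CPM) and the withdrawal rats (122 ± 28.1 CPM). It was 0.21 ± 0.073 in withdrawal vs. control (q = 0.128) and -0.14 ± 0.079 in ethanol vs. control (q = 0.497). These 2 comparisons share the control rats. The first passed with DESeq2 (q = 0.0777), with quality weights (q = 0.0573), in a fit of only the 2 groups (q = 0.0941) and without withdrawal rat 2 (0.23, q = 0.0981), where 6.34% to 10.7% of all genes were DE.

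The size of the Gad2 difference depended on the surrogate variables. Without them it was 0.62 on the log2 scale (q = 0.0821), and the exact two-sided permutation test of log2 CPM over the 12 rats gave p = 0.0216 (q = 0.276 over all genes). The call held in 16 of 23 other settings and in 15 of 18 fits that left out 1 rat. It was lost without ethanol rat 2 (0.43, q = 0.166), without ethanol rat 3 (0.29, q = 0.234) and without withdrawal rat 6 (0.28, q = 0.342), and at q < 0.05 it was not made. In those 3 fits 0 of all genes tested were DE between withdrawal and ethanol by limma, and 2020, 2178 and 1917 had an unadjusted p below 0.05. Between the 2 withdrawal rats and the 6 ethanol rats of the same index set the log2 difference was 0.60, without a surrogate variable and given as a value only. These 2 withdrawal rats were far apart, at 146 CPM (rat 1) and 94.2 CPM (rat 2). Rat 1 was also among the 3 rats with the highest midbrain sum (53.4 CPM). The direction was the same in all of these fits, as the plot of the alternatives shows.

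**Figure D2:**
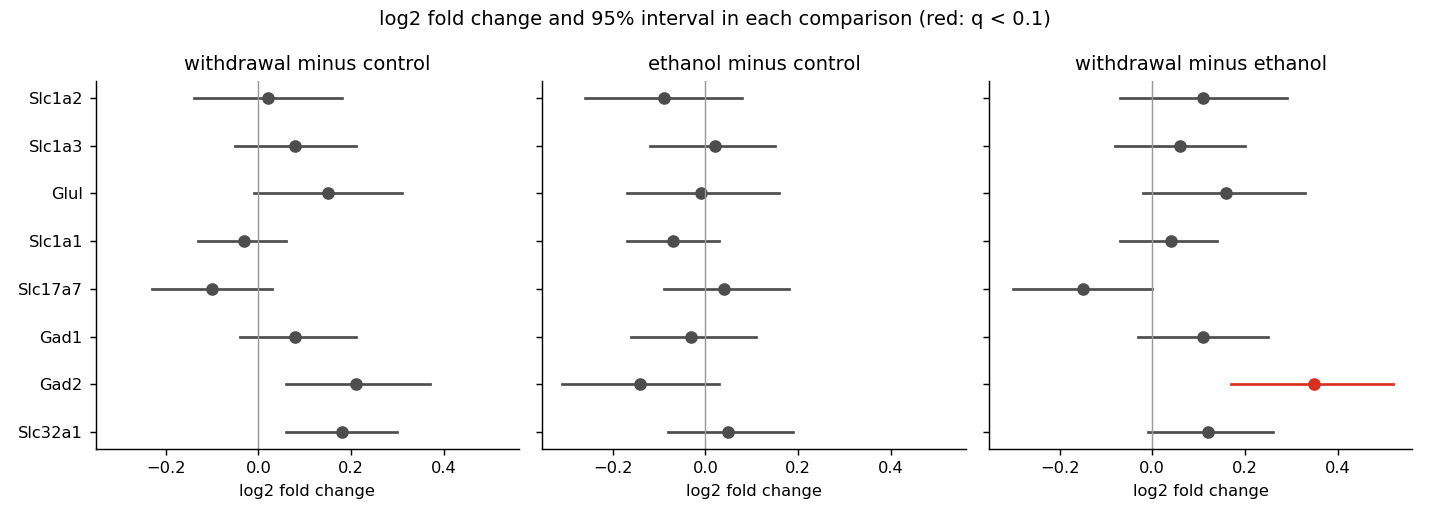
Points give the limma log2 fold change of each gene (horizontal axis) in the 3 comparisons and lines its 95% interval, in red where q < 0.1. Gad2 in withdrawal minus ethanol (0.35) is red, and no interval of ethanol minus control leaves out 0.

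**Figure D3:**
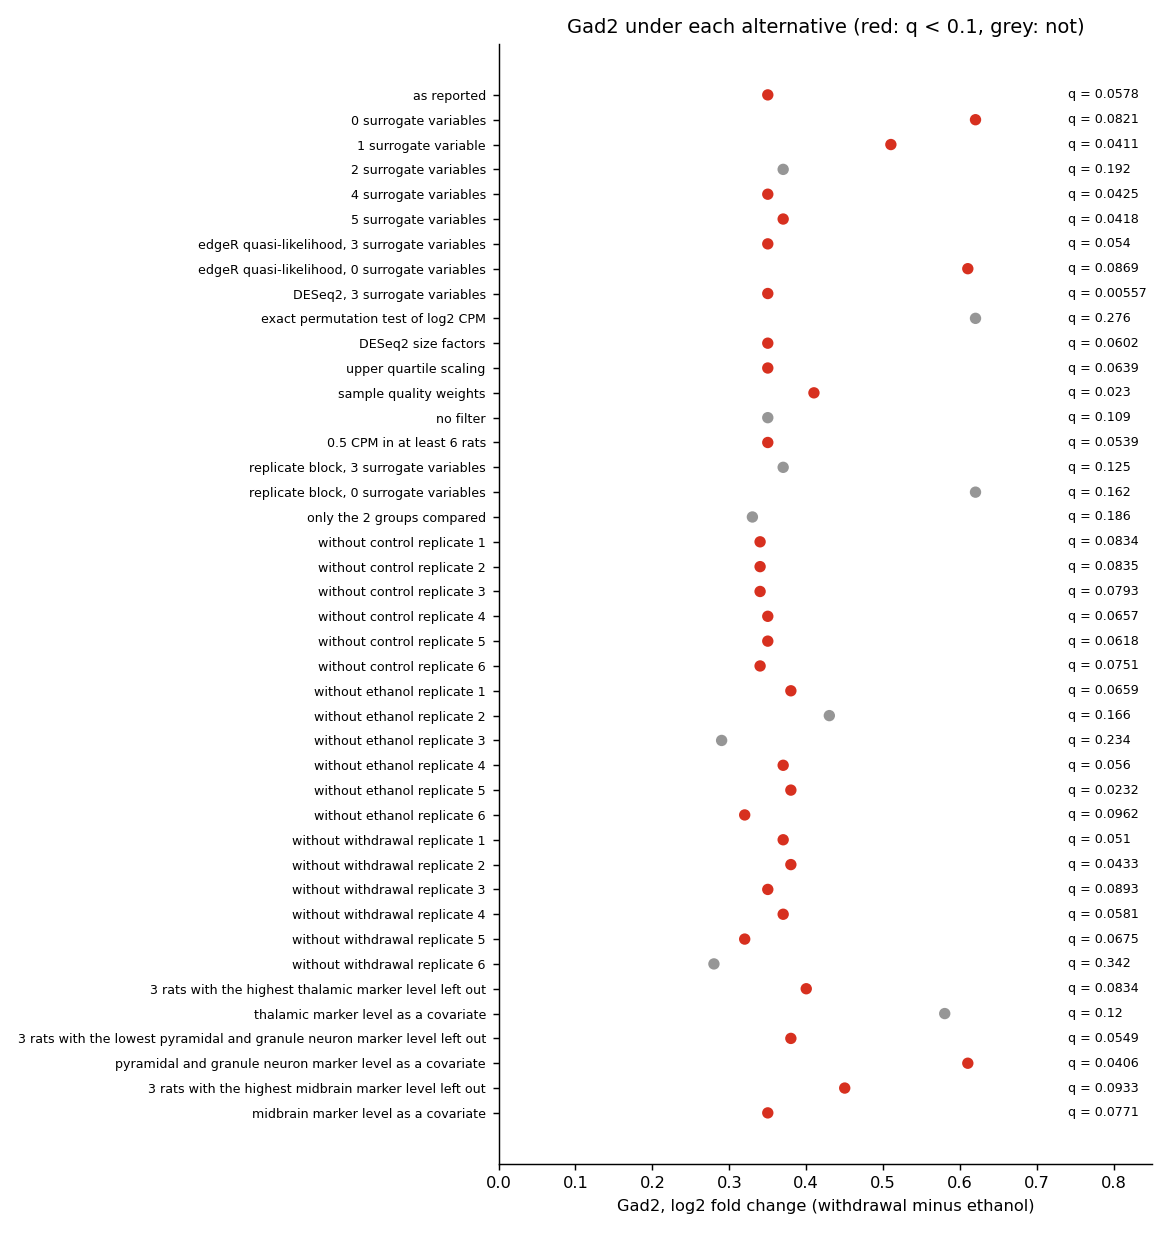
Each point is the log2 fold change of Gad2 between withdrawal and ethanol (horizontal axis) under 1 setting (vertical axis), red where q < 0.1 and grey where not, with q printed at the right. All points lie between 0.28 and 0.62.

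Across rats the 8 genes fell into sets that varied together. The values below are correlations over 18 rats of log2 CPM after the mean of each group had been subtracted, and they are a description, since all genes of a rat share its library and its dissection. Gad1 and Gad2 had a Pearson r of 0.92 (Spearman rho 0.90), Gad1 and Slc32a1 had 0.91 (0.86), and Gad2 and Slc32a1 had 0.86 (0.88). Without the 2 rats farthest from the median these were 0.88, 0.82 and 0.82. Slc1a1 and Slc17a7, the neuronal glutamate genes, had an r of 0.93 (rho 0.85), or 0.83 without the 2 farthest rats. Slc1a2 and Slc1a3, the astrocytic transporters, had an r of 0.81 (rho 0.73), which fell to 0.61 without ethanol rat 1 and withdrawal rat 5. Glul had an r of -0.39 with Slc1a2, -0.09 with Slc1a3 and 0.67 with Gad1. These values rested on a few rats. The r with Slc1a3 was 0.59 without withdrawal rats 3 and 5, that with Slc1a2 was -0.09 without ethanol rat 1 and withdrawal rat 5, and that with Gad1 was 0.48 without control rat 2 and withdrawal rat 5. Slc17a7 and Slc32a1, which load glutamate and GABA into vesicles, had an r of -0.66 (rho -0.73), or -0.64 without the 2 farthest rats.

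**Figure D4:**
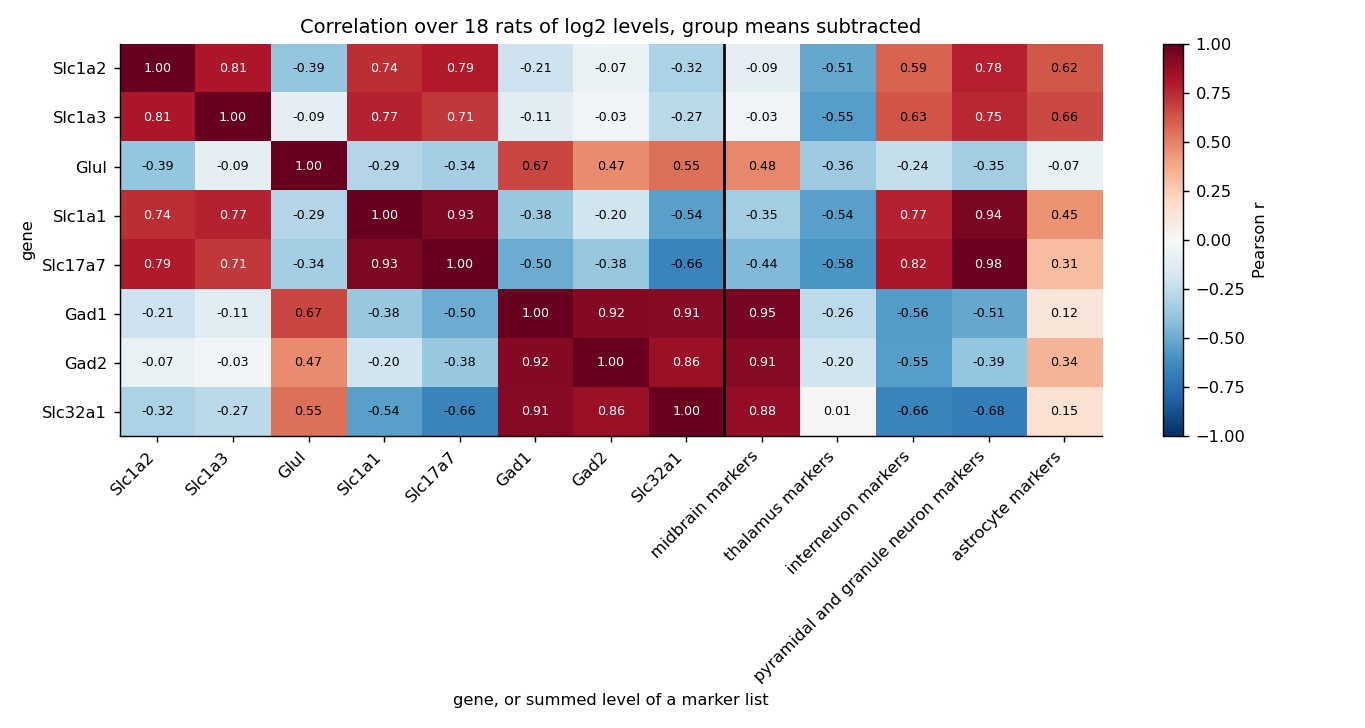
Colours and numbers give the Pearson r over 18 rats between the log2 level of each gene (vertical axis) and that of another gene or the summed level of a marker list (horizontal axis), with the group means subtracted. Gad1, Gad2 and Slc32a1 (0.86 to 0.92 with each other) form one block and Slc1a1 and Slc17a7 (0.93) another.

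Markers of hippocampal interneurons are given beside the GABA genes. The summed level of 12 interneuron markers, among them Sst, Pvalb and Vip, lay between 592 and 667 CPM in control rats, between 590 and 690 CPM in ethanol rats and between 549 and 677 CPM in withdrawal rats. Of the 11 that were tested, 0 were DE by limma in any of withdrawal vs. control, ethanol vs. control and withdrawal vs. ethanol (5.41%, 0.493% and 2.72% of all genes). Unadjusted p was below 0.05 for 2, 1 and 2 of them, as it was for 19.7%, 12.5% and 16.7% of all genes. Sst was 26.9 to 38.7 CPM in control, 18.8 to 40.7 CPM in ethanol and 32.6 to 48.5 CPM in withdrawal rats. Lhx6, a factor of interneurons, was 5.90 to 9.85, 5.86 to 11.8 and 5.35 to 11.9 CPM. Mean Sst was 31.8 CPM in ethanol and 39.9 CPM in withdrawal rats, and mean Dlx1 went the other way (12.7 and 10.1 CPM). Npy, the marker that was not tested, was listed at 0 in all ethanol and withdrawal rats. The interneuron sum had an r of -0.56 with Gad1, -0.55 with Gad2, -0.66 with Slc32a1, 0.82 with Slc17a7 and 0.77 with Slc1a1. Without ethanol rat 5 and withdrawal rat 5 these were -0.44, -0.51, -0.51, 0.65 and 0.53. The interneuron sum was made up mostly of Cnr1 (276 CPM on average in control rats), Reln (127 CPM) and Cck (87.9 CPM), of which Cck and Cnr1 are also genes of pyramidal neurons. The 8 midbrain factors were listed after the values had been seen, so their correlations are a description only. Their sum had an r of 0.95 with Gad1 (rho 0.97), 0.91 with Gad2 (rho 0.89) and 0.88 with Slc32a1 (rho 0.87). These values were 0.92, 0.84 and 0.79 without ethanol rat 2 and withdrawal rat 5. The midbrain sum was 70.0 CPM in withdrawal rat 5, 53.4 CPM in withdrawal rat 1 and 42.0 CPM in ethanol rat 2, and between 2.64 and 24.9 CPM in the other 15 rats. Slc32a1 was highest in the same 3 rats, at 111, 94.0 and 86.4 CPM. By group the midbrain sum had a median of 21.5 CPM in control, 4.40 CPM in ethanol and 17.5 CPM in withdrawal rats. Of its 8 factors, 0 were DE in any of the 3 comparisons by limma (5.41%, 0.493% and 2.72% of all genes). An unadjusted p below 0.05 was found for 0 of them (19.7%, 12.5% and 16.7% of all genes). These fits held surrogate variables, the first of which was lowest in withdrawal rat 5 (-0.62), withdrawal rat 1 (-0.33) and ethanol rat 2 (-0.19). The counts therefore do not measure the midbrain level by group. Pax7 was 0.0284 CPM in the lowest rat and 18.6 CPM in the highest. The choroid plexus sum ran against the GABA genes, with an r of -0.52 with Gad1 (rho -0.47), -0.46 with Gad2 (rho -0.51) and -0.56 with Slc32a1 (rho -0.50), or -0.67, -0.62 and -0.65 without withdrawal rats 4 and 5. By group it had a median of 2500 CPM in control, 4091 CPM in ethanol and 2218 CPM in withdrawal rats. In withdrawal vs. ethanol, the comparison in which Gad2 was DE, 0 of its 7 markers were DE by limma (2.72% of all genes), unadjusted p was below 0.05 for 4 (16.7% of all genes), and their median log2 fold change was -0.39. Its part in the difference of Gad2 was not tested.

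The Gad2 difference between withdrawal and ethanol was 0.45 (q = 0.0933) without the 3 rats with the highest midbrain sum and 0.35 (q = 0.0771) with the midbrain sum in place of the surrogate variables. With the thalamic sum in their place it was 0.58 (q = 0.12), and with the pyramidal and granule neuron sum 0.61 (q = 0.0406). In these 4 fits 0.797%, 1.00%, 2.31% and 10.2% of all genes were DE. For Slc32a1 in withdrawal vs. control the values were 0.16 (q = 0.282) without the 3 rats and 0.26 (q = 0.171) with the midbrain sum, where 1.61% and 0.543% of all genes were DE. The part of neighbouring tissue in the levels of the GABA genes was not tested beyond these values.

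Slc17a7 and Slc1a1 followed the pyramidal and granule neurons. The summed markers of these neurons had an r of 0.98 with Slc17a7 (rho 0.95) and of 0.94 with Slc1a1 (rho 0.92). Withdrawal rat 5, with the lowest Slc17a7 (376 CPM) and the lowest Slc1a1 (68.3 CPM), also had the lowest sum (964 CPM). Slc17a7 ran against Slc17a6, the vesicular glutamate transporter of the thalamus and midbrain, with an r of -0.90 (rho -0.91). Slc17a6 reached 229 CPM in control, 362 CPM in ethanol and 300 CPM in withdrawal rats. The summed astrocyte markers had an r of 0.62 with Slc1a2, 0.66 with Slc1a3 and -0.07 with Glul, and without ethanol rat 6 and withdrawal rat 5 these were 0.31, 0.47 and 0.27. With the summed pyramidal and granule neuron markers Slc1a2 and Slc1a3 had an r of 0.78 and 0.75, which were 0.40 and 0.44 without ethanol rat 1 and withdrawal rat 5. Of 10 astrocyte markers, 2 rose and 2 fell in withdrawal vs. control (2.85% and 2.55% of all genes), 0 were DE in ethanol vs. control (2 with unadjusted p below 0.05, as for 12.5% of all genes) and 1 rose in withdrawal vs. ethanol (1.23% of all genes).

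Other cell types also moved with some of the 8 genes. The summed level of 6 endothelial markers lay between 240 and 298 CPM in control, 260 and 309 CPM in ethanol and 254 and 344 CPM in withdrawal rats, and 3 of the 6 rose in withdrawal vs. control (2.85% of all genes). It had an r of -0.74 with Slc17a7 (rho -0.83) and 0.58 with Slc32a1 (rho 0.61), or -0.76 and 0.52 without withdrawal rats 1 and 2. That of 7 microglial markers lay between 161 and 217 CPM over all rats and had an r of -0.78 with Glul (rho -0.77), or -0.73 without withdrawal rats 4 and 5. That of 7 oligodendrocyte markers had an r of -0.61 with Glul (rho -0.64), or -0.52 without ethanol rats 2 and 5. Of the microglial and oligodendrocyte markers 0 were DE in withdrawal vs. control by limma, where unadjusted p was below 0.05 for 1 and 2 of them (19.7% of all genes). The part of these cells in the levels of the 8 genes was not tested.

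**Figure D5:**
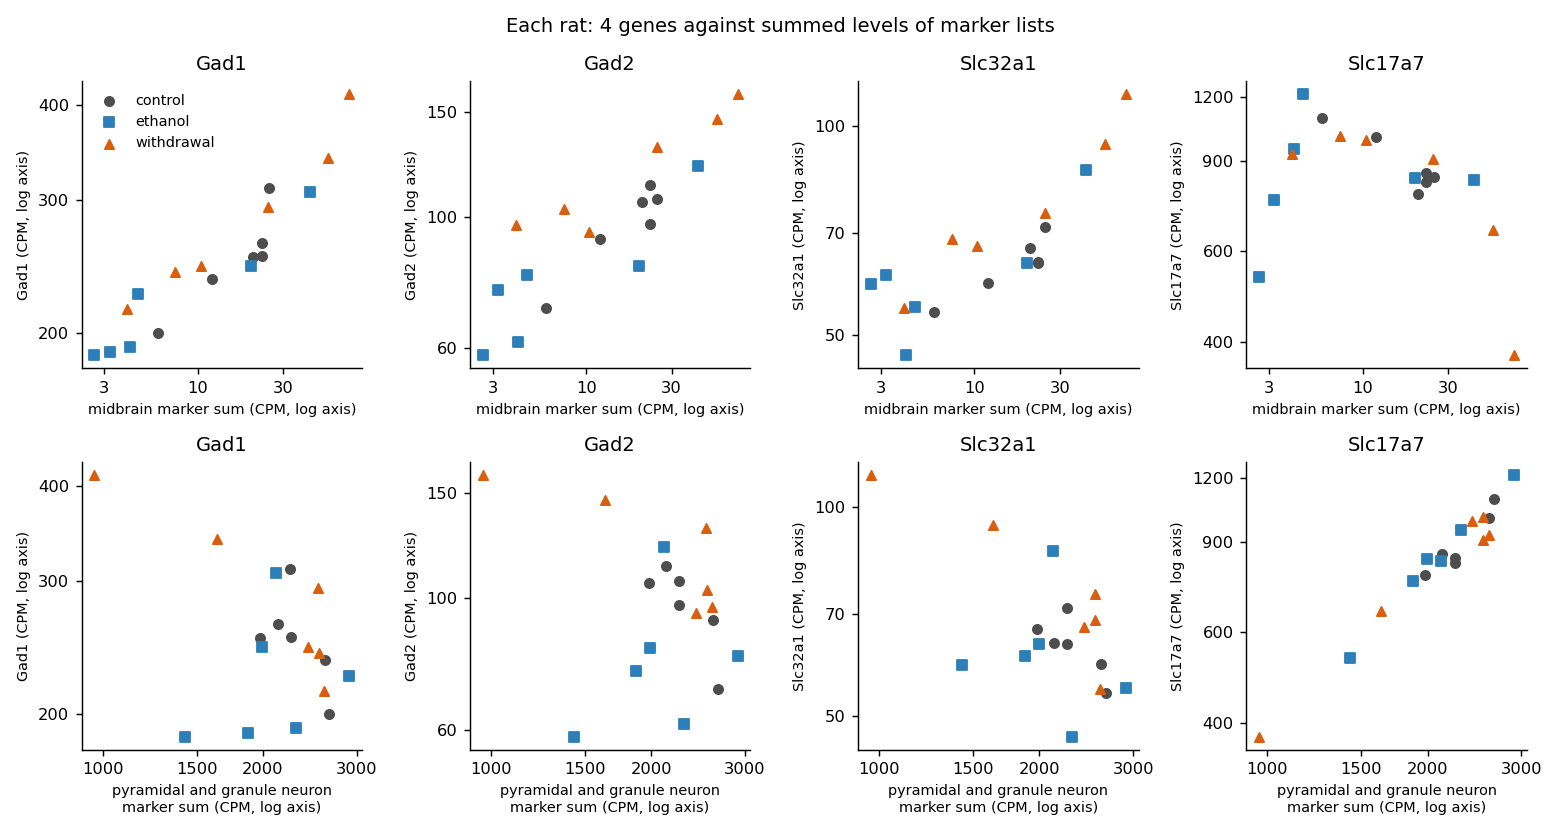
Each point is 1 rat, with the level of Gad1, Gad2, Slc32a1 or Slc17a7 in CPM on the vertical axis and the summed level of 8 midbrain factors or 11 pyramidal and granule neuron markers in CPM on the horizontal axis, all axes logarithmic. The GABA genes rise with the midbrain sum (r of 0.95, 0.91 and 0.88) and Slc17a7 rises with the neuron sum (r of 0.98). The midbrain list was made after the values had been seen.

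Ratios within a rat do not depend on the scaling of the library. The Gad1 to Gad2 ratio of RPKM ranged from 1.32 to 1.65 in control rats (median 1.47), from 1.43 to 1.83 in ethanol rats (median 1.65) and from 1.27 to 1.48 in withdrawal rats (median 1.33). The ranges of ethanol and withdrawal overlapped between 1.43 and 1.48. Gad1 was thus above Gad2 per length in all 18 rats, with the lowest median ratio in withdrawal. The Slc1a2 to Slc1a3 ratio had medians of 0.590, 0.545 and 0.560 in control, ethanol and withdrawal rats, with overlapping ranges. The Slc17a7 to Slc32a1 ratio had medians of 16.7, 16.2 and 17.0, and its lowest value was 4.31 in withdrawal rat 5. The Glul to Slc1a2 ratio had medians of 3.61, 4.02 and 3.69, and its highest value was 7.04 in the same rat.

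Other genes of the pathway were taken as a list of 28, of which 27 were tested. In withdrawal vs. control 2 rose, where 2.85% of all genes did, and 2 fell, where 2.55% did, and the median log2 fold change of the list was -0.03 beside 0.00 for all genes. In ethanol vs. control (0.493% of all genes) and in withdrawal vs. ethanol (2.72%), 0 of 27 were DE by limma. Unadjusted p was below 0.05 for 7, 5 and 7 of the 27 in withdrawal vs. control, ethanol vs. control and withdrawal vs. ethanol, beside 19.7%, 12.5% and 16.7% of all genes. In the last 2 comparisons DESeq2 called 3 in each (2.65% and 6.59% of all genes), and edgeR called 1 and 0 (0.538% and 2.98%).

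Slc38a2, which encodes a sodium-coupled transporter of glutamine and other neutral amino acids, rose most clearly. It ranged from 168 to 209 CPM in control rats (median 180), from 171 to 223 CPM in ethanol rats (median 209) and from 190 to 315 CPM in withdrawal rats (median 288). In withdrawal, 5 of 6 rats lay above every control rat and above every ethanol rat. The log2 fold change in withdrawal vs. control was 0.53 ± 0.103 (q = 0.0222, limma; exact permutation p = 0.00433, q = 0.213). It was lost only without withdrawal rat 6 among the fits that left out 1 rat (0.42, q = 0.136), where 0.129% of all genes were DE. In withdrawal vs. ethanol the Slc38a2 fold change was 0.34 ± 0.116 (q = 0.15, limma). With 1 rat left out it ran from 0.20 to 0.48. It passed without ethanol rat 5 (q = 0.0797) and without withdrawal rat 2 (q = 0.0177), where 10.1% and 5.66% of all genes were DE. It also passed in 5 of 17 other settings, where 3.48% to 8.36% of all genes were DE.

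Slc1a4, a transporter of alanine, serine and cysteine of the same family as the glutamate transporters, was 23.4 ± 5.62 CPM in withdrawal and 17.1 ± 0.661 CPM in control rats. Its log2 fold change was 0.43 ± 0.121 (q = 0.0749, limma; exact permutation p = 0.00433, q = 0.213), and 5 of 6 withdrawal rats lay above every control rat. Aldh5a1, the mitochondrial enzyme of the last step of GABA breakdown, fell by 0.15 ± 0.042 on the log2 scale (q = 0.0784, limma), from 185 ± 9.08 to 172 ± 18.5 CPM. Only 2 withdrawal rats lay below every control rat, 1 lay above every control rat, and the exact permutation test gave p = 0.139 (q = 0.554). Asns, asparagine synthetase, which uses glutamine and yields glutamate, fell by 0.13 ± 0.041 (q = 0.0933, limma), from 83.8 ± 3.34 to 75.0 ± 7.32 CPM. For Asns 2 withdrawal rats lay below every control rat, and the exact permutation test gave p = 0.0173 (q = 0.287). These 3 calls were close to the threshold, and leaving out 1 rat at a time ended them in 9, 9 and 13 of 18 fits. The rats were for Slc1a4 each control rat and withdrawal rats 1, 3 and 6 (q between 0.109 and 0.197), for Aldh5a1 all control rats but rat 3, ethanol rat 3 and withdrawal rats 1, 4 and 6 (q up to 0.354), and for Asns all control rats but rat 2, ethanol rats 2, 3, 4 and 6 and withdrawal rats 1, 3, 5 and 6 (q up to 0.296). In the fits that ended a call 0.129% to 6.44% of all genes were DE.

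In ethanol vs. control the smallest p of the list were those of Slc17a6 (-0.34 ± 0.080, q = 0.101), Slc25a12 (0.16 ± 0.044, q = 0.148) and Asns (-0.15 ± 0.044, q = 0.158). The Slc17a6 value turned to 0.12 without surrogate variables. With 1 rat left out it ran from -0.41 to -0.30 and passed in 5 of 18 fits, where 0.0617% to 1.26% of all genes were DE. Slc25a12 encodes the mitochondrial aspartate and glutamate carrier of brain, and 5 of the 6 ethanol rats lay above every control rat. It ranged from 98.5 to 112 CPM over all ethanol rats and from 86.4 to 102 CPM in control rats. In withdrawal vs. ethanol the smallest p were those of Slc25a12 (-0.15 ± 0.046, q = 0.113), Slc17a6 (0.27 ± 0.084, q = 0.12, and -0.11 without surrogate variables) and Slc38a2. With 1 rat left out Slc17a6 ran from 0.14 to 0.36 and passed in 3 of 18 fits, where 2.05% to 5.66% of all genes were DE. Slc25a12 ran from -0.21 to -0.12 and passed in 3 of 18 fits, where 3.11% to 10.1% were. Levels of Slc25a12 in withdrawal rats (89.4 to 110 CPM) covered the range of both other groups in part.

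For each of the 8 genes the 3 named genes with the most similar level across rats, among 14425 with a mean of at least 1 CPM, were found with the group means subtracted. For Slc17a7 they were Neurod6, Cacng8 and Slc9a4 (r of 0.99 each), and for Slc1a1 Camk2a (0.96), Lgi1 (0.95) and Epha7 (0.95). Neurod6 and Camk2a are among the pyramidal and granule neuron markers. For Slc1a3 they were Bcan (0.90), Wnt7b (0.88) and Mras (0.87), for Slc1a2 Col6a5 (0.91), Wnt3a (0.90) and Ncoa6 (0.89), and for Glul Rapgef3 (0.85), Srsf4 (0.84) and Ssbp3 (0.82).

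For Gad1 they were Nos1, Pou4f2 and Barhl1 (0.96 each). Pou4f2 and Barhl1 encode transcription factors of developing sensory and brainstem neurons, and Nos1 encodes neuronal nitric oxide synthase. Pou4f2 was at most 2.41 CPM in control rats and reached 3.75 CPM in ethanol and 14.8 CPM in withdrawal rats. For Gad2 they were Gad1 (0.92), Tal1 (0.91) and Kcna3 (0.91), of which Tal1 encodes a transcription factor and Kcna3 a potassium channel. For Slc32a1 they were Nhs (0.96), Magel2 (0.95) and Usp13 (0.95).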

How the data were processed

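Per the labels and the study's methods, read pairs of TruSeq libraries were aligned by the authors to Rnor_6.0 with STAR 2.5.2a. They deposited raw counts, which featureCounts 1.5.0 made per gene of NCBI annotation 106 from exons, with regard to strand and without pairs of several positions. Groups were taken from the treatment labels. The GRCr8 reference table gave a name for 29322 of 38445 identifiers, and 9123 had none.

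Counts were scaled by TMM (edgeR 4.0.16). A gene was tested where any rat exceeded 0.5 CPM, which left 17853 genes for limma 3.58.1 (voom) in R 4.3.3. The model held all 18 rats, the group and 3 surrogate variables, which sva 3.50.0 estimated from log2 CPM (prior count 2). Tests were two-sided, and q was adjusted over all genes within a comparison. Permutation tests took all 924 splits of 12 rats, for which the smallest p is 0.00216. Correlations, ratios and plots were made in Python 3.11.15 (pandas 2.3.3, numpy 2.4.6, scipy 1.17.1, matplotlib 3.10.9). The fit was checked on simulated data with known fold changes. The simulated rats differed only by library size, the set fold changes and independent noise, so the check does not cover the adjustment by surrogate variables.

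Totals had a median of 36302755 counts. Replicates of a group differed by more than sampling noise in all 45 pairs. The 8 genes and the lists were chosen with earlier results of these data known. The pathway genes named were those that were DE and the 3 with the smallest p in each comparison. Alternatives were other numbers of surrogate variables, edgeR, DESeq2 1.42.0, permutation, other scalings and filters, quality weights, a block by replicate number, fits of only the groups compared, rats of the same index set, and leaving out each rat. Those on thalamic, neuronal and midbrain markers were added after seeing the data. Upstream sequences are from RefSeq (GRCr8), where 7 of the 8 genes had a window. A few genes of the lists are not reported here by name.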

Additional observations from a re-analysis of the deposited data

Results flagged for a closer look

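In 84 groups of 6 rats (the 8 genes, 6 other genes of the pathway that are named above, 10 marker sums and 4 ratios between genes), 2 had a rat far from the others, with a gap to the nearest rat of more than Dixon's 95% critical share of the group's range. Chance flags about 1 in 20 groups. Asns was 87.8 CPM in ethanol rat 5, where the next rat of the group had 74.9 CPM (ratio 0.631). Slc38a2 was 171 CPM in ethanol rat 3, where the next rat had 205 CPM (ratio 0.650). No level of the 8 genes stood apart in this way within a group.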

How the results depend on the processing

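Of 992 fold changes of the 8 genes under an alternative, 908 kept their direction and their side of the threshold, 52 turned in sign, all with q above 0.1, 10 lost and 15 gained the call, and 7 without a test moved by more than the spread. The number of the 8 genes that were DE in withdrawal vs. control (0) was 1 with 4 surrogate variables, quality weights, 0.5 CPM in at least 6 rats or the replicate block, and 2 with DESeq2 or only the 2 groups, where 5.27% to 9.10% of all genes were DE (5.41% with the reported fit). In withdrawal vs. ethanol (1) it was 0 at q < 0.05, with 2 surrogate variables, permutation, no filter, the replicate block with 3 or 0 surrogate variables, only the 2 groups or the thalamic covariate, where 0.627% of all genes at q < 0.05 and 0% to 2.31% in the others were DE (2.72% with the reported fit), and 2 with 5 surrogate variables, without the 3 rats of lowest pyramidal and granule neuron level, or with that level as a covariate, where 4.88%, 4.01% and 10.2% were. Leaving out 1 rat gave 0 to 1 in both, and 0 throughout in ethanol vs. control.

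Of the other genes of the pathway, withdrawal vs. control (4) gave 1 at q < 0.05, with 0, 1 or 5 surrogate variables, edgeR without them or no filter, 2 with 2 surrogate variables, and 0 by permutation or the replicate block without surrogate variables. Ethanol vs. control (0) gave 2 with 1 or 5 surrogate variables, 1 with 4, with edgeR or with 0.5 CPM in at least 6 rats, and 3 with DESeq2 or quality weights. Withdrawal vs. ethanol (0) gave 1 with 0 or 4 surrogate variables, edgeR without them or 0.5 CPM in at least 6 rats, 3 with 1 surrogate variable or DESeq2, and 2 with quality weights. Leaving out 1 rat gave 0 to 4, 0 to 1 and 0 to 4. In the settings that gave fewer calls in withdrawal vs. control at most 3.33% of all genes were DE, and in those that gave more in the other comparisons 0.538% to 2.65% and 3.07% to 8.36% were. Over all genes, 41, 50 and 621 were DE without surrogate variables where 965, 88 and 486 were with 3 of them. By permutation 0 were DE in each comparison at q < 0.1, and 2284, 2405 and 2553 genes had an unadjusted p below 0.05. The cause of these changes was not tested.

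Fold changes that turned in sign were as follows. Slc1a2 in withdrawal vs. control was -0.01 without surrogate variables (limma, permutation, replicate block) and with the midbrain covariate, and -0.03 with the thalamic one. Slc1a3 in ethanol vs. control was -0.07 without surrogate variables (limma, edgeR, permutation, replicate block), with 1 and with the midbrain covariate, -0.02 with 2 and with the neuronal covariate, -0.01 with only the 2 groups, -0.04 without the 3 rats of highest thalamic level and -0.03 with the thalamic covariate. Slc1a1 in withdrawal vs. control was 0.01 without the 3 rats of lowest neuronal or highest midbrain level and 0.00 with the neuronal covariate. Slc17a7 in ethanol vs. control was -0.10 without surrogate variables (limma, permutation), -0.12 with 1, -0.07 in edgeR and -0.11 in the replicate block, both without them, and -0.25 with the midbrain covariate, and in withdrawal vs. ethanol it was 0.07 with 1 surrogate variable and 0.06 with the midbrain covariate. Gad1 in ethanol vs. control was 0.05 with the midbrain covariate. Slc32a1 in ethanol vs. control was -0.05 without surrogate variables (limma, permutation) and with the thalamic covariate, -0.03 with 1, in edgeR without them and without the 3 rats of highest midbrain level, -0.04 in the replicate block without them and -0.13 with the neuronal covariate. Slc17a6 in ethanol vs. control was 0.12 without surrogate variables (limma, permutation, replicate block), 0.16 with 1 and 0.32 in edgeR without them, and in withdrawal vs. ethanol -0.11, -0.42 and -0.18. With 1 rat left out, the ranges were -0.03 to 0.09 for Slc1a2 in withdrawal vs. control, and in ethanol vs. control -0.01 to 0.04 for Slc1a3, -0.08 to 0.04 for Glul, -0.07 to 0.02 for Gad1 and -0.03 to 0.10 for Slc32a1.

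The replicate numbers belong to different animals. Same-numbered rats did not deviate together (r of -0.32 to 0.38 over 18 pairs, 4 above 0.1), and 5 of 18 rats correlated best with their own number. With the replicate block and 3 surrogate variables, Gad2 in withdrawal vs. ethanol was 0.37 (q = 0.125), where 1 gene of all 17853 was DE, and Slc32a1 in withdrawal vs. control was 0.19 (q = 0.0461). Counts of the 8 genes were at least 1571 in every rat. Index set and group are mixed in only 2 withdrawal rats, which share the set of the ethanol rats.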
